A study of Mus musculus with 14 samples.

Results

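The genes described here are 34 mouse genes of glycolysis and of the metabolic response to low oxygen. They cover glucose uptake, the glycolytic enzymes, lactate production and export, the control of pyruvate entry into mitochondria, and the HIF (hypoxia-inducible factor) system. The members were taken as the rows of the deposited count table whose Ensembl identifiers map to the 34 symbols, which gave 35 of the 55487 rows, because Aldoa has a second entry. RNA-seq was made from monocytes of mouse leg bone marrow, isolated with a kit and reported as 90 to 95% pure by flow cytometry. Culture lasted 3 h, either without added cytokine or in the presence of mouse IL-4 (interleukin-4, a type 2 cytokine) at 20 ng/mL. The 4 groups were wild type in medium (n = 4 libraries), wild type with IL-4 (n = 4), AhR-deficient in medium (n = 3) and AhR-deficient with IL-4 (n = 3), where AhR is the aryl hydrocarbon receptor, a ligand-activated transcription factor. The labels name neither the allele nor the strain nor the age of the mice, and whether a library is 1 animal or a pool is not given in the sources used here. P-values therefore measure the spread between these libraries, which may be technical in part.

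Glycolysis converts glucose to pyruvate. Its rate is set mainly at hexokinase, which traps glucose in the cell, and at phosphofructokinase, which is switched on by an activator made by the PFKFB enzymes; monocarboxylate transporters then carry lactate across the cell membrane. Under low oxygen, prolyl hydroxylases of the Egln family stop marking HIF-1α for destruction, and HIF with its partner Arnt induces many of these genes through promoter sites with the cores ACGTG and GCGTG. AhR also partners with Arnt, and GCGTG is the core of its own response element as well, while IL-4 acts through STAT factors, whose sites read TTC, then 4 bases of any kind, then GAA.

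The 250 bases upstream of RefSeq start sites (GRCm38.p6) were read for these letters on both strands. In all, 33 of the 34 members had such a window, with 47 windows among them. ACGTG or GCGTG stood in 39 windows of members (83.0%), against 38.6% of the 32851 windows of all genes. Cores numbered 3 or more in 12 windows of members (25.5%), against 6.58% of all windows. The STAT form was in 4 windows of members (8.51%, in Gpi1, Hif1a, Hk3 and Ldha), against 5.85% of all windows. CACGTG reads as ACGTG on both strands and so counts as a pair of cores. It was in 6 of the 47 windows of members and in 1978 of the 32851 windows of all genes (6.02%). The windows of all genes were not matched for base composition, some windows of 1 gene overlap each other, and a match is a description of the letters alone. Windows are shown for 5 members that rose (Hk3, Slc16a1) or fell (Pfkfb3, Slc16a3) in both genotypes or differed between genotypes (Bnip3), with the matches to a core or to the STAT form, on either strand, in capitals, each written 5′ to 3′ on the strand of the gene. They are Hk3 (chr13:55021386-55021635, minus strand), the more 3′ of the 2 windows of Pfkfb3 (chr2:11502091-11502340, minus strand), Slc16a1 (chr3:104638414-104638663, plus strand), Slc16a3 (chr11:120948817-120949066, plus strand) and Bnip3 (chr7:138909507-138909756, minus strand). At most 14 bases of each lie inside an exon of the gene in GENCODE M21.
Hk3: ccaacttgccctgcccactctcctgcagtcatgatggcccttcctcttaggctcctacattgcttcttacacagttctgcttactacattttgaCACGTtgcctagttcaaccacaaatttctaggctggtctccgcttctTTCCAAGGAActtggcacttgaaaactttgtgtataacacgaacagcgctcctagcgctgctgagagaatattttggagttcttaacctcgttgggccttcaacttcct
Pfkfb3: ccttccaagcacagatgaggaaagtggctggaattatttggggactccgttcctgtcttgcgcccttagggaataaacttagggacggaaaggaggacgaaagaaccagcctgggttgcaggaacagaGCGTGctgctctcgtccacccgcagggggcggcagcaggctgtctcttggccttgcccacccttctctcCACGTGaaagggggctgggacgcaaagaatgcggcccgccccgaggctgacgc
Slc16a1: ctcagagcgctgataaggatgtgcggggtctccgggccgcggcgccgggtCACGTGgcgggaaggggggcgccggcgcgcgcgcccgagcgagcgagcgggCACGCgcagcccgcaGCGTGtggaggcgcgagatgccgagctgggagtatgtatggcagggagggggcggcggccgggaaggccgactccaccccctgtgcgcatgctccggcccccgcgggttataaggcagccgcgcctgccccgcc
Slc16a3: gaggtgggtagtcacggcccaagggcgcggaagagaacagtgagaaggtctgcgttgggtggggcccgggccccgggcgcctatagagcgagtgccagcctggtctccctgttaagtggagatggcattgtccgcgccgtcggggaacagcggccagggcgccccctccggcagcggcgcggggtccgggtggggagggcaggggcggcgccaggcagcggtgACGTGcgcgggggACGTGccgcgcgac
Bnip3: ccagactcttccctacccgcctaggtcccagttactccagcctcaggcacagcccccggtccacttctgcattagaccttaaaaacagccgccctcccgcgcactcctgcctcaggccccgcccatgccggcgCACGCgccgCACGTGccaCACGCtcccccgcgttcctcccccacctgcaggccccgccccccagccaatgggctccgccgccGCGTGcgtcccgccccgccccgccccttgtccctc
The Hk3 window held 1 core of the ACGTG form and 1 STAT form, the Pfkfb3 window 3 cores, the Slc16a1 window 4, the Slc16a3 window 2 and the Bnip3 window 5. Cores were thus present upstream of members that rose and of members that fell with IL-4, as the values below show.

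Library totals ran from 33432502 to 42885079 counts. Levels are given as CPM, which are counts scaled to a common library size after TMM normalization, and a member was called when edgeR's quasi-likelihood test gave an adjusted p under 0.05 over the 14754 genes tested. The sum of 9 monocyte markers, all with counts in every library, was 20790 to 23470 CPM in wild-type medium, 13350 to 14360 in wild type with IL-4, 20700 to 23960 in AhR-deficient medium and 13170 to 14730 with IL-4. Of these 9 markers 5 fell with IL-4 in wild type and 4 in AhR-deficient cells. The 13 neutrophil markers summed to 899.3 to 1536 CPM over all libraries, and 2 of the 13 rose with IL-4 in each genotype. The 6 eosinophil markers were highest in wild-type numbers 1 and 2 (117.2 to 155.9 CPM, against 26.78 to 53.92 for numbers 3 and 7). In AhR-deficient libraries they summed to 12.47 to 63.54 CPM in medium and 12.44 to 53.08 with IL-4, all below wild-type numbers 1 and 2. The 5 basophil and mast cell markers summed to 44.09 to 240.5 CPM, and none of the 5 was called. Their highest sums were in wild-type number 1 (235.3 in medium and 188.3 with IL-4) and in number 7 with IL-4 (240.5). The medium library of number 7 had 123.0. The 5 dendritic cell markers summed to 43.68 to 59.7 CPM in wild-type medium and 82.8 to 100.7 with IL-4, and to 51.3 to 59.73 and 92.52 to 104.4 in AhR-deficient cells, so their sum was higher with IL-4 with no overlap. Of the 4 of them tested, 1 rose with IL-4 in each genotype and 1 was higher in AhR-deficient libraries in each treatment. B, T and NK cell markers summed to at most 5.473 CPM. Ahr itself read 13.02 ± 1.60, 25.5 ± 1.40, 20.9 ± 5.23 and 41.9 ± 4.43 CPM (mean ± SD) in the 4 groups in the order above, so it was higher in the libraries labelled AhR-deficient, and counts per gene cannot show whether an exon is missing. All AhR-deficient libraries had Xist at 987 CPM or more and Ddx3y at 0, while all wild-type libraries had Xist at 2.12 CPM or less and Ddx3y at 114 or more. Genotype and sex therefore cannot be told apart in these libraries. The part of other cells and of sex in the results was not tested.

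Compared per kilobase of exon, the highest members in wild-type medium were pyruvate kinase (Pkm, 233 CPM per kb), aldolase A (Aldoa, 213), Gapdh (167) and Hif1a (118). Hif1a, the gene of the oxygen-regulated HIF subunit, thus stood among the abundant glycolytic enzymes. Eno1 (89.5), Gpi1 (88.9) and Pgk1 (88.9) followed at nearly the same level per kb. The first-step enzymes were lower, with Hk2 at 20.5, Hk3 at 17.9 and Hk1 at 6.74 CPM per kb. At the low end were Pfkm (1.15), Aldoc (0.404) and Pdk4, which had 0 counts in all 14 libraries and was not tested. Exon length here is the union of all annotated exons, which gives Pfkp 13401 bases, so the level per kb of a gene is a lower one where its cells use a shorter transcript. The median absolute deviation over members from the group mean was 0.0462 to 0.13 on the log2 scale in the 14 libraries, and the largest for a single member was 0.675, for Slc2a6 in wild-type medium number 1.

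The first comparison asks which steps changed after 3 h of IL-4. In wild type, 5 of the 33 tested members rose, 10 fell and 18 did not pass, so 45.5% were called, against a background of 35.9% of all tested genes (19.4% rose, 16.5% fell). In AhR-deficient cells 7 rose, 9 fell and 17 did not pass, which is 48.5% of members against a background of 29.5% of all genes (15.4% rose, 14.2% fell). The groups did not overlap for 14 of 33 members in wild type, where 33.2% of all genes did not. In AhR-deficient cells they did not overlap for 19 of 33 members, where 43.7% of all genes did not. The median log2 change over members was -0.105 in wild type and -0.10 in AhR-deficient cells, against 0.009 and -0.009 over all genes tested. These medians are over members that went both ways. The median size of the log2 change, whatever its sign, was 0.249 over members and 0.213 over all genes in wild type, and 0.22 and 0.214 in AhR-deficient cells. In wild type the largest rises were in Slc16a1, Pfkfb4, Hk3, Pfkp and Pdk3 and the largest falls in Pfkfb3, Slc16a3, Vegfa and Hif1a. In bulk RNA, fewer cells of a type and less RNA per cell cannot be told apart, and IL-4 moved the monocyte marker sum as given above.

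**Figure D1:**
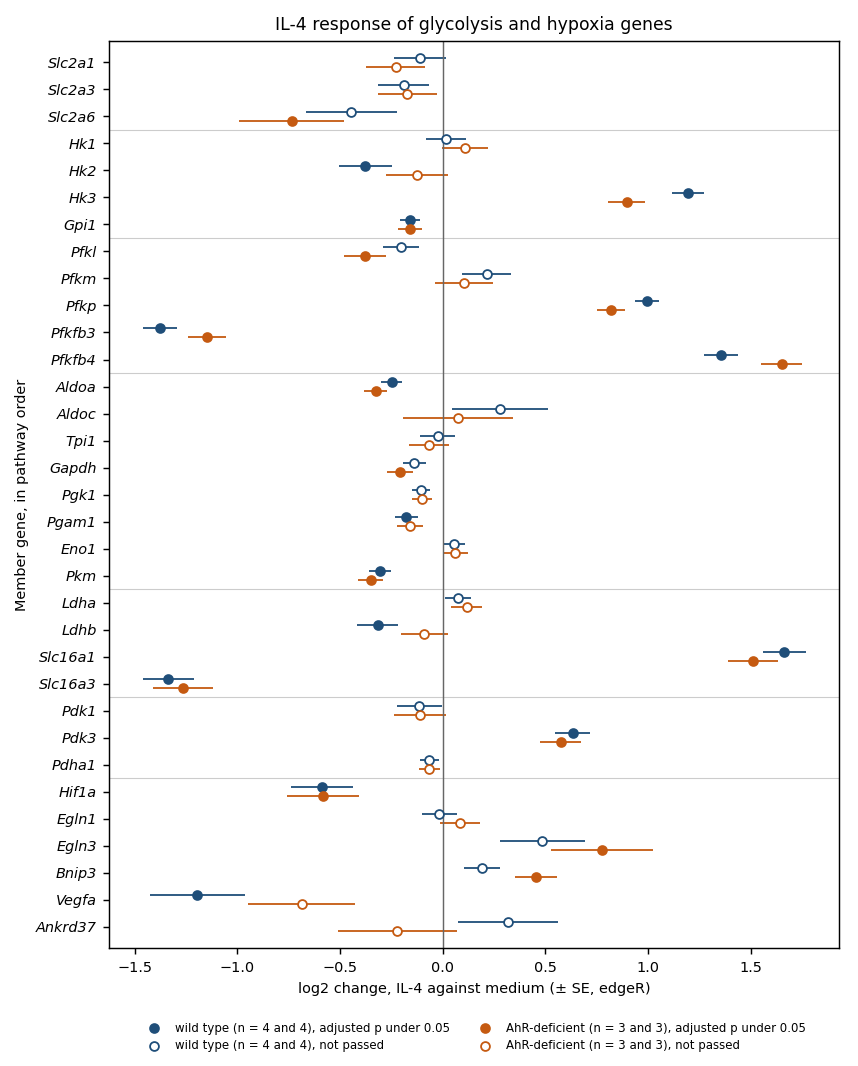
Log2 change with IL-4 (x axis, ± SE from edgeR) for the 33 tested members in pathway order (y axis), in wild type (n = 4 and 4 libraries) and AhR-deficient cells (n = 3 and 3), with filled points for an adjusted p under 0.05. Slc16a1 (1.66 in wild type), Pfkfb4 (1.35) and Hk3 (1.20) lie farthest to the right and Pfkfb3 (-1.38) and Slc16a3 (-1.34) farthest to the left in wild type, while the enzymes from Aldoa to Pkm lie between -0.35 and 0.28 in both genotypes.

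In glucose uptake, IL-4 gave 0 calls among 3 members in wild type and 1 fall in AhR-deficient cells. Slc2a6, a lysosomal member of the glucose transporter family, read 134, 224, 281 and 251 CPM in wild-type medium (numbers 1, 2, 3 and 7, the order used throughout, as is 4, 5 and 6 for AhR-deficient libraries) and 126, 158, 232 and 138 CPM with IL-4. In AhR-deficient cells it read 364, 243 and 304 CPM in medium and 204, 167 and 176 CPM with IL-4. The wild-type groups overlapped widely, with number 1 low and number 3 high in both treatments, and the AhR-deficient groups did not overlap. The log2 change was -0.74 ± 0.26 (adjusted p = 0.0431) in AhR-deficient cells and -0.45 ± 0.22 (adjusted p = 0.138) in wild type. The call in AhR-deficient cells was lost without medium number 4 or 6 (adjusted p = 0.16 and 0.0898) or without IL-4 number 4, 5 or 6 (adjusted p = 0.0617, 0.131 and 0.11). The wild-type fall was called without medium number 1 (adjusted p = 0.0187) or IL-4 number 3 (adjusted p = 0.0257). With the replicate number as a block, which compares each number with itself, Slc2a6 fell in wild type by 0.435 on the log2 scale (adjusted p = 0.0056). Slc2a1, the GLUT1 carrier, had a log2 change of -0.11 ± 0.13 in wild type and -0.23 ± 0.14 in AhR-deficient cells, and it passed in AhR-deficient cells with the fixed block in edgeR (-0.223, adjusted p = 0.0443) and without numbers 1 and 2 (-0.217, adjusted p = 0.0478), but not with the random block in limma-voom (adjusted p = 0.131). Numbers 1 and 2 are wild type, so for AhR-deficient cells the fit without them changes only the spread, scaling and filter that all libraries share. Slc2a3, the GLUT3 carrier, had changes of -0.19 and -0.17 with adjusted p of 0.271 and 0.427.

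At hexokinase the isoforms diverged: Hk3 rose about 2-fold and Hk2 did not. Hk3, the hexokinase known for its expression in myeloid cells, read 67.1, 70.01, 64.7 and 61.8 CPM in wild-type medium and 142, 163, 129 and 169 CPM with IL-4. The AhR-deficient libraries gave 73.9, 77.4 and 78.4 CPM in medium and 131, 144 and 152 CPM with IL-4. Every IL-4 library lay above every medium library of either genotype. The log2 change was 1.20 ± 0.08 (adjusted p = 4.02e-08) in wild type, a 2.29-fold rise, and 0.90 ± 0.09 (adjusted p = 4.26e-06) in AhR-deficient cells, a 1.86-fold rise. Hk2, the inducible isoform, fell in wild type with a log2 change of -0.38 ± 0.13 (adjusted p = 0.0355) and changed by -0.13 ± 0.15 (adjusted p = 0.596) in AhR-deficient cells. The Hk2 call was lost without wild-type medium number 1 or 3 (adjusted p = 0.0755 and 0.101) or IL-4 number 1, 2 or 3 (adjusted p = 0.0837, 0.0813 and 0.0664), and without numbers 1 and 2 together (adjusted p = 0.29). Hk1, the housekeeping isoform, had changes of 0.02 and 0.11 (adjusted p = 0.919 and 0.529). Per kb of exon, Hk3 made up 39.7 ± 2.59% (SD, n = 4) of the hexokinase members in wild-type medium and 64.3 ± 2.16% with IL-4, and 46.1 ± 3.17% and 62.4 ± 2.32% (n = 3) in AhR-deficient cells. Hk2 held 45.4 ± 3.89% in wild-type medium and 24.9 ± 2.13% with IL-4, and 41.1 ± 4.54% and 27.6 ± 2.96% in AhR-deficient cells. In medium the ranges of both isoforms over libraries overlapped in each genotype, and with IL-4 Hk3 held the larger share in all 7 libraries. The sum of the 3 went from 45.2 to 63.6 CPM per kb in wild type and from 45.3 to 62.1 in AhR-deficient cells.

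Gpi1, the isomerase of the next step, fell slightly in both genotypes, with log2 changes of -0.16 ± 0.05 (adjusted p = 0.0201) and -0.16 ± 0.06 (adjusted p = 0.0483). In wild type the call was lost without IL-4 number 2 (adjusted p = 0.0589) and without numbers 1 and 2 (adjusted p = 0.298). In AhR-deficient cells it was lost without medium number 5 or 6 (adjusted p = 0.136 and 0.15) and without IL-4 number 4, 5 or 6 (adjusted p = 0.173, 0.0639 and 0.0944). It was also lost with DESeq2 size factors (adjusted p = 0.057), with no filter (adjusted p = 0.197), with the filter of 1 CPM (adjusted p = 0.0626), with only the groups compared (adjusted p = 0.0656) and without numbers 1 and 2 (adjusted p = 0.0582). That last fit leaves out no AhR-deficient library.

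At the phosphofructokinase step 2 of 5 members rose and 1 fell in wild type, 2 rose and 2 fell in AhR-deficient cells, and the PFKFB regulators moved in opposite directions. Pfkp, the platelet-type phosphofructokinase, read 335, 350.2, 385 and 402 CPM in wild-type medium and 757, 724, 738 and 715 CPM with IL-4. Its AhR-deficient levels were 454, 418 and 434 CPM in medium and 751, 744 and 809.6 CPM with IL-4. Its level nearly doubled with no overlap, and it was already the main phosphofructokinase in medium. The log2 change was 0.99 ± 0.06 (adjusted p = 1.15e-08) in wild type and 0.82 ± 0.07 (adjusted p = 5.33e-07) in AhR-deficient cells. Pfkp shares an annotated stretch with its neighbour Pitrm1, whose counts came to 6.22% of those of Pfkp. Pfkl, the liver-type isoform, fell in AhR-deficient cells with a log2 change of -0.38 ± 0.10 (adjusted p = 0.0107), a call lost without IL-4 number 5 (adjusted p = 0.0503). In wild type Pfkl changed by -0.20 ± 0.09 (adjusted p = 0.0882), which passed without IL-4 number 3 (adjusted p = 0.0207) and in the blocked model (-0.204, adjusted p = 0.0121). Pfkm, the muscle-type isoform, was low and had changes of 0.21 and 0.10 (adjusted p = 0.191 and 0.642). Pfkp made up 78.7 ± 1.20% of the phosphofructokinase members per kb in wild-type medium and 89.0 ± 1.08% with IL-4, and 80.9 ± 0.515% and 90.2 ± 0.273% in AhR-deficient cells.

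Both PFKFB members make and break the activator of phosphofructokinase, and Pfkfb3 is known for the highest kinase activity of the family. Pfkfb3 read 67.1, 64.6, 65.5 and 60.4 CPM in wild-type medium and 23.4, 25.8, 22.5 and 27.4 CPM with IL-4. In AhR-deficient cells it read 50.96, 63.1 and 60.2 CPM in medium and 23.6, 27.3 and 27.8 CPM with IL-4. All 7 IL-4 libraries lay below all 7 medium libraries, and the replicates within each group were close. The log2 change was -1.38 ± 0.08 (adjusted p = 1.23e-08) in wild type and -1.15 ± 0.09 (adjusted p = 5.03e-07) in AhR-deficient cells. Pfkfb4 went the other way, from 107, 84.2, 78.02 and 84.7 CPM in wild-type medium to 218, 227, 235 and 225 CPM with IL-4. The AhR-deficient libraries gave 56.5, 64.00 and 66.3 CPM in medium and 189, 196 and 202 CPM with IL-4. The groups were far apart in both genotypes, and among the medium libraries wild-type number 1 was the highest. Pfkfb4 rose with a log2 change of 1.35 ± 0.08 (adjusted p = 2.01e-08) in wild type, 2.56-fold, and 1.65 ± 0.10 (adjusted p = 1.94e-08) in AhR-deficient cells, 3.14-fold. Per kb, Pfkfb4 made up 67.9 ± 2.69% of the pair in wild-type medium and 93.4 ± 0.623% with IL-4, and 62.5 ± 1.16% and 92.05 ± 0.431% in AhR-deficient cells. The fall of Pfkfb3 was thus outweighed in the summed level of the pair, which went from 26.7 to 49.7 CPM per kb in wild type and from 20.5 to 43.6 in AhR-deficient cells.

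**Figure D2:**
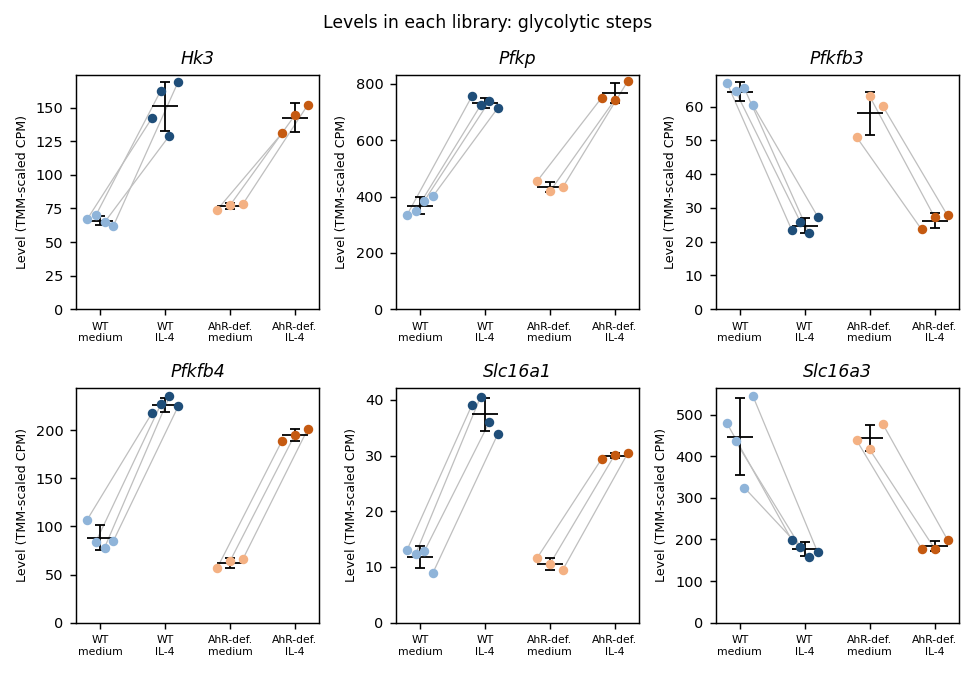
Level in each library (TMM-scaled CPM, y axis from 0) for 6 members in the 4 groups (x axis), with lines joining the medium and IL-4 libraries of a number and bars for mean ± SD. The IL-4 libraries lie above the medium libraries for Hk3, Pfkp, Pfkfb4 and Slc16a1 and below them for Pfkfb3 and Slc16a3 in both genotypes, with the widest spread in wild-type medium for Slc16a3 (325 to 546 CPM).

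From aldolase to pyruvate kinase the changes were small, and the called ones were falls: 3 of 8 members in each genotype. Aldoa, which splits the 6-carbon sugar, went from 619 ± 22.6 CPM (SD, n = 4) to 520.5 ± 16.7 CPM in wild type and from 629 ± 27.9 to 502 ± 29.8 CPM (n = 3) in AhR-deficient cells. Its log2 change was -0.25 ± 0.05 (adjusted p = 0.00112) in wild type and -0.33 ± 0.06 (adjusted p = 0.000513) in AhR-deficient cells, with no overlap. The wild-type call was lost without numbers 1 and 2 (-0.20, adjusted p = 0.0569). That fit holds wild-type numbers 3 and 7 alone, so it has fewer libraries, and numbers 1 and 2 had the higher eosinophil marker sums. The cause of the lost call was not tested. Pkm, pyruvate kinase, the last enzyme of the pathway, went from 1166 ± 76.2 to 943 ± 39.4 CPM in wild type and from 1196 ± 49.9 to 938 ± 26.2 CPM in AhR-deficient cells. It fell with a log2 change of -0.31 ± 0.05 (adjusted p = 0.000415) in wild type and -0.35 ± 0.06 (adjusted p = 0.00056) in AhR-deficient cells. Gene-level counts do not separate the PKM1 and PKM2 splice forms. Gapdh, which yields the first NADH, fell in AhR-deficient cells with a log2 change of -0.21 ± 0.06 (adjusted p = 0.0233) and changed by -0.14 ± 0.06 (adjusted p = 0.0659) in wild type. Its call in AhR-deficient cells was lost without medium number 6 (adjusted p = 0.102) or IL-4 number 4 or 5 (adjusted p = 0.0792 and 0.0688), and with no filter (adjusted p = 0.0779). In wild type it passed without medium number 3 or IL-4 number 7 (adjusted p = 0.0318 and 0.021) and in the blocked model (-0.138, adjusted p = 0.0344). DESeq2 size factors, the DESeq2 Wald test and the filter of 1 CPM called it there too (adjusted p = 0.0455, 0.0272 and 0.0465). Near-identical stretches of Gapdh stand in 77 other annotated genes, whose counts came to 0.518% of those of Gapdh. Pgam1, the mutase, fell in wild type with a log2 change of -0.18 ± 0.06 (adjusted p = 0.0207), a call lost without IL-4 number 2 (adjusted p = 0.0635) or without numbers 1 and 2 (adjusted p = 0.417), and changed by -0.16 ± 0.06 (adjusted p = 0.0714) in AhR-deficient cells. Pgk1, the first ATP-making kinase, changed by -0.10 ± 0.04 (adjusted p = 0.0724) in wild type and passed there without IL-4 number 7 (adjusted p = 0.022). Pgk1 also passed there with DESeq2 size factors, the DESeq2 Wald test and the filter of 1 CPM (adjusted p = 0.0483, 0.0269 and 0.0475). Tpi1 and Eno1 did not pass in either genotype, with log2 changes from -0.066 to 0.061, nor did Aldoc (0.279 and 0.074). The second Aldoa entry, with 362 counts in all, was not called in any comparison.

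In lactate handling the monocarboxylate transporters MCT1 and MCT4 moved in opposite directions. Slc16a1, which encodes MCT1, a high-affinity carrier that moves lactate and pyruvate in either direction, read 13.1, 12.3, 12.8 and 8.97 CPM in wild-type medium and 39.1, 40.6, 35.99 and 33.9 CPM with IL-4. Its AhR-deficient levels were 11.5, 10.5 and 9.49 CPM in medium and 29.4, 30.1 and 30.4 CPM with IL-4. It rose about 3-fold with no overlap, and wild-type number 7 was the lowest of its group in both treatments. The log2 change was 1.66 ± 0.10 (adjusted p = 2.4e-08) in wild type and 1.51 ± 0.12 (adjusted p = 4.45e-07) in AhR-deficient cells. Slc16a3, which encodes MCT4, the lactate exporter of strongly glycolytic cells, read 480.3, 437, 325 and 546 CPM in wild-type medium and 199, 182, 158 and 169 CPM with IL-4. In AhR-deficient cells it read 439, 417 and 479 CPM in medium and 178, 178 and 199 CPM with IL-4. Every IL-4 library lay below every medium library. Slc16a3 fell with a log2 change of -1.34 ± 0.13 (adjusted p = 1.49e-06) in wild type, to 0.396 of its level in medium, and -1.26 ± 0.14 (adjusted p = 1.39e-05) in AhR-deficient cells, to 0.416. Per kb, Slc16a1 made up 3.23 ± 1.06% of the pair in wild-type medium and 20.3 ± 1.18% with IL-4, and 2.78 ± 0.393% and 16.3 ± 0.727% in AhR-deficient cells. Slc16a3 thus stayed the more abundant transporter transcript in all groups, and the sum of the pair went from 86.7 to 41.7 CPM per kb in wild type and from 86.0 to 41.6 in AhR-deficient cells.

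The lactate dehydrogenase subunits had smaller changes than the transporters. Ldha, whose subunit favours lactate formation, had log2 changes of 0.07 ± 0.06 (adjusted p = 0.417) in wild type and 0.12 ± 0.07 (adjusted p = 0.275) in AhR-deficient cells. Ldhb, whose subunit favours the reverse reaction, fell in wild type with a log2 change of -0.32 ± 0.10 (adjusted p = 0.0223) and changed by -0.09 ± 0.11 (adjusted p = 0.624) in AhR-deficient cells. The Ldhb call was lost without medium number 1 or 2 (adjusted p = 0.0657 and 0.0505) or IL-4 number 2 (adjusted p = 0.07), and without numbers 1 and 2 together (adjusted p = 0.441).

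**Figure D3:**
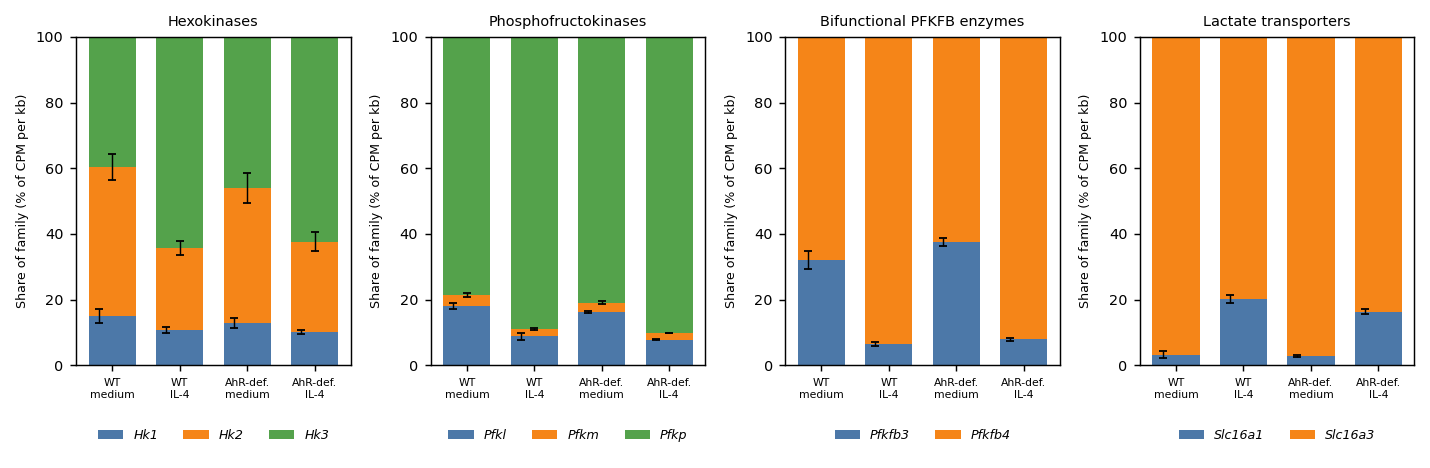
Mean share of each isoform in the summed level of its family's members (percent of CPM per kb, y axis) in the 4 groups (x axis). Stacked bars give group means, with SD marked for all but the top isoform, for the hexokinase, phosphofructokinase, PFKFB and monocarboxylate transporter members. Hk3 goes from 39.7 to 64.3%, Pfkfb4 from 67.9 to 93.4% and Slc16a1 from 3.23 to 20.3% between wild-type medium and IL-4; the shares are descriptions, with no test.

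In the control of pyruvate, 1 of 3 tested members was called in each genotype. Pdk3, a kinase that inhibits the pyruvate dehydrogenase complex, read 17.6, 17.97, 17.1 and 15.3 CPM in wild-type medium and 27.9, 25.9, 24.5 and 27.2 CPM with IL-4. The AhR-deficient libraries gave 14.9, 14.7 and 17.01 CPM in medium and 23.6, 19.7 and 26.1 CPM with IL-4. The groups did not overlap in either genotype, although AhR-deficient IL-4 number 5 came near the medium libraries. Pdk3 rose with a log2 change of 0.63 ± 0.09 (adjusted p = 5.01e-05) in wild type and 0.57 ± 0.10 (adjusted p = 0.000544) in AhR-deficient cells. Pdk1, the kinase of the family known as a HIF target, had changes of -0.11 and -0.11 (adjusted p = 0.469 and 0.58). Pdha1, a catalytic subunit of the complex, had changes of -0.07 and -0.07 (adjusted p = 0.294 and 0.39), and its overlapping neighbour Map3k15 had counts amounting to 16.8% of those of Pdha1.

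Among the HIF members, Hif1a fell with IL-4 in both genotypes, while the HIF-regulated genes listed here did not move together. Hif1a read 468, 665, 835 and 804 CPM in wild-type medium and 407, 429, 549 and 459.9 CPM with IL-4. Its AhR-deficient levels were 1018, 991 and 937 CPM in medium and 685, 719 and 564 CPM with IL-4. The wild-type groups overlapped because medium number 1 was low, and the AhR-deficient groups did not overlap. The log2 change was -0.59 ± 0.15 (adjusted p = 0.00747) in wild type and -0.58 ± 0.17 (adjusted p = 0.0212) in AhR-deficient cells. The AhR-deficient call was lost without medium number 4 or 5 (adjusted p = 0.061 and 0.0508) or IL-4 number 6 (adjusted p = 0.0921). Vegfa, the vascular growth factor and a classical HIF target, read 39.3, 44.8, 65.8 and 71.98 CPM in wild-type medium and 20.4, 22.1, 29.2 and 25.2 CPM with IL-4. In AhR-deficient cells it read 68.5, 116 and 70.7 CPM in medium and 44.7, 70.02 and 43.9 CPM with IL-4. The wild-type groups were apart, and the AhR-deficient groups overlapped because number 5 was high in both treatments. Vegfa fell in wild type with a log2 change of -1.20 ± 0.23 (adjusted p = 0.00104) and changed by -0.69 ± 0.26 (adjusted p = 0.0641) in AhR-deficient cells. With the replicate block it fell in AhR-deficient cells as well (-0.679, adjusted p = 0.000117), and it passed there without IL-4 number 5 (adjusted p = 0.0251).

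None of the oxygen sensors, Bnip3 or Ankrd37 was called as falling with IL-4. Egln3, the hydroxylase that HIF itself induces, read 9.35, 9.48, 12.7 and 6.99 CPM in wild-type medium and 11.8, 13.7, 13.1 and 15.4 CPM with IL-4. The AhR-deficient libraries gave 4.88, 8.66 and 4.79 CPM in medium and 9.04, 13.5 and 8.94 CPM with IL-4. The wild-type groups overlapped through medium number 3, and the AhR-deficient groups were apart by a narrow margin. Egln3 rose in AhR-deficient cells with a log2 change of 0.78 ± 0.25 (adjusted p = 0.0288) and changed by 0.48 ± 0.21 (adjusted p = 0.087) in wild type. The AhR-deficient call was lost without medium number 4 or 6 (adjusted p = 0.116 and 0.116) or IL-4 number 5 (adjusted p = 0.146), with only the groups compared (adjusted p = 0.0589) and without numbers 1 and 2 (adjusted p = 0.0683). That last fit leaves out no AhR-deficient library, and the log2 change there was 0.786. In wild type Egln3 passed without medium number 3 (adjusted p = 0.0318) and with the replicate block (0.499, adjusted p = 0.0151). Bnip3, a HIF target that marks mitochondria for removal, read 17.4, 14.9, 14.6 and 13.4 CPM in wild-type medium and 17.6, 17.8, 15.6 and 17.8 CPM with IL-4. Its AhR-deficient levels were 8.41, 10.1 and 10.1 CPM in medium and 14.1, 12.6 and 12.6 CPM with IL-4. The wild-type groups overlapped through medium number 1 and IL-4 number 3, and the AhR-deficient groups did not overlap. Bnip3 rose in AhR-deficient cells with a log2 change of 0.45 ± 0.10 (adjusted p = 0.00407) and changed by 0.19 ± 0.09 (adjusted p = 0.105) in wild type, where it passed without medium number 1 (adjusted p = 0.0195). Egln1, the main oxygen sensor, had changes of -0.02 and 0.08 (adjusted p = 0.914 and 0.592). Ankrd37, a hypoxia-induced gene, had changes of 0.32 and -0.22 (adjusted p = 0.349 and 0.637).

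**Figure D4:**
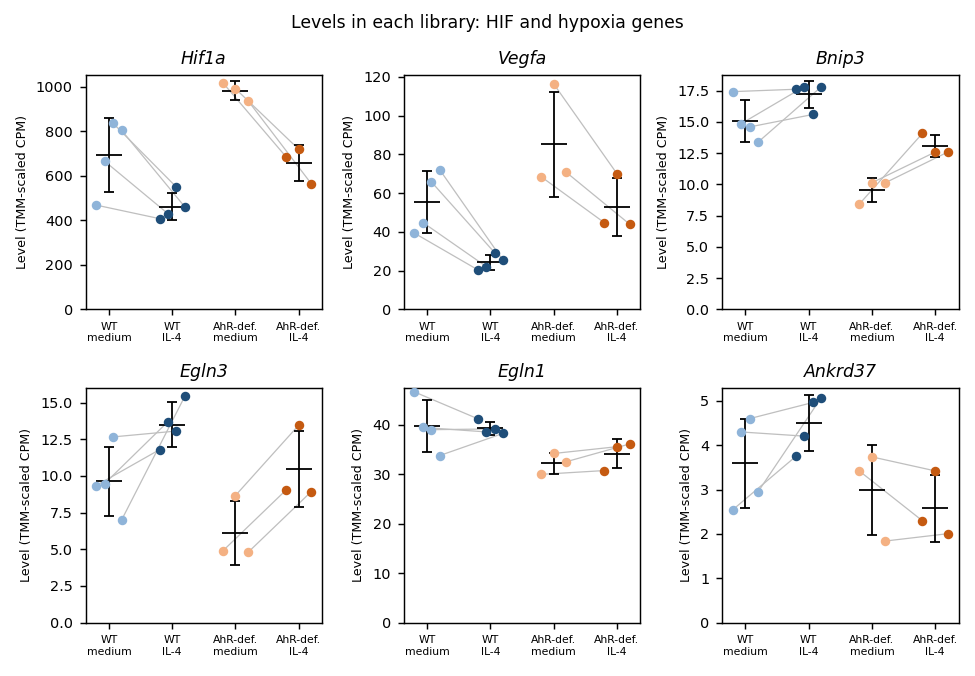
Level in each library (TMM-scaled CPM, y axis from 0) for HIF and related members in the 4 groups (x axis), with lines joining the medium and IL-4 libraries of a number and bars for mean ± SD. Hif1a is below its medium level with IL-4 in every pair, and Bnip3 is lowest in AhR-deficient medium (8.41 to 10.1 CPM).

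The IL-4 responses of the genotypes share no library and can be set side by side. In both, Hk3, Pfkp, Pfkfb4, Slc16a1 and Pdk3 rose and Gpi1, Pfkfb3, Aldoa, Pkm, Slc16a3 and Hif1a fell, so 11 members were called the same way in both. Among them, both calls of Gpi1, the Hif1a call in AhR-deficient cells and the Aldoa call in wild type were lost in alternatives given above. These 11 are 73.3% of the members called in wild type and 68.8% of those called in AhR-deficient cells, where the shares over all genes were 70.3% and 85.4%. Hk2, Pgam1, Ldhb and Vegfa were called in wild type alone, and Slc2a6, Pfkl, Gapdh, Egln3 and Bnip3 in AhR-deficient cells alone. No member was called in opposite directions, and the sign of the change was the same for 31 of 33. The test of the difference itself, the genotype by IL-4 interaction, called 0 of 33 members with edgeR, where it called 0% of all genes. At an unadjusted p under 0.05 it held 2 of the 33 members and 558 of all genes (3.78%). Those 2 were Hk3, with a response smaller by 0.30 ± 0.12 on the log2 scale in AhR-deficient cells (difference -0.30 ± 0.12, unadjusted p = 0.025), and Pfkfb4, with a larger one (difference 0.29 ± 0.13, unadjusted p = 0.0345). Both had an adjusted p of 1.0. The DESeq2 Wald test and limma-voom also called 0 members, and so did the edgeR model with the replicate block. In that model 4 of the 33 members had an unadjusted p under 0.05, as had 1251 of all genes (8.48%). The smallest adjusted p of a member there was 0.34, for Vegfa. No difference in response between genotypes was therefore shown for any member, and members called in 1 genotype alone are not shown to be particular to it.

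The second comparison asks which members differed between genotypes under the same treatment. Differences are given as AhR-deficient minus wild type, and the libraries compared differ in sex as well, as given above. In medium, Pfkp was higher and Pfkfb4 and Bnip3 were lower, so 3 of 33 members (9.09%) were called, against a background of 8.11% of all genes (4.16% higher, 3.95% lower). With IL-4, Vegfa was higher, which is 1 of 33 (3.03%) against 1.62% of all genes (0.956% higher, 0.664% lower). The share of members called was thus near that of all genes. The groups did not overlap for 6 of 33 members in medium, where 20.0% of all genes did not overlap. With IL-4 they did not overlap for 11 of 33 members, where 18.2% of all genes did not. The median difference over members was -0.062 in medium and -0.076 with IL-4, against 0.01 and -0.008 over all genes.

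Bnip3 had the largest called difference in medium, -0.66 ± 0.10 (adjusted p = 0.00387), with every AhR-deficient library (8.41 to 10.1 CPM) below every wild-type library (13.4 to 17.4 CPM). It kept this call in all 7 fits without 1 library and lost it without numbers 1 and 2 together (-0.56, adjusted p = 0.0846) and with only the groups compared in the model (-0.67, adjusted p = 0.0537). With IL-4 the Bnip3 difference was -0.40 ± 0.10 (adjusted p = 0.0551), again with no overlap. It passed without wild-type IL-4 number 3 (adjusted p = 0.0405) and with the number as a random block in limma-voom (-0.40, adjusted p = 0.0478). The DESeq2 Wald test (adjusted p = 0.00894) and the fit with only the groups compared (adjusted p = 0.0314) called it as well. Pfkfb4 differed by -0.51 ± 0.09 (adjusted p = 0.00974) in medium, where the AhR-deficient libraries read 56.5 to 66.3 CPM and the wild-type libraries 78.02 to 107. That call was lost without AhR-deficient medium number 4 (-0.44, adjusted p = 0.0695), without numbers 1 and 2 (-0.39, adjusted p = 0.0779) and with only the groups compared (-0.52, adjusted p = 0.0681). With IL-4 the Pfkfb4 difference was -0.21 ± 0.09 (adjusted p = 0.224), which passed with only the groups compared (adjusted p = 0.0412). Pfkp differed by 0.24 ± 0.06 (adjusted p = 0.0332) in medium and 0.07 ± 0.06 (adjusted p = 0.61) with IL-4. The Pfkp call was lost without wild-type medium number 1 or 2 (adjusted p = 0.0677 and 0.0968), without AhR-deficient medium number 4 or 6 (adjusted p = 0.163 and 0.0725), without numbers 1 and 2 together (0.14, adjusted p = 0.305), with no filter (adjusted p = 0.0605) and with only the groups compared (adjusted p = 0.125).

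Vegfa was 2.19-fold higher in AhR-deficient cells with IL-4, at 43.9 to 70.0 CPM against 20.4 to 29.2 CPM, a log2 difference of 1.13 ± 0.25 (adjusted p = 0.0394). The call was lost without wild-type IL-4 number 1, 2 or 7 (adjusted p = 0.115, 0.126 and 0.0673), without AhR-deficient IL-4 number 4 or 5 (adjusted p = 0.113 and 0.184) and without numbers 1 and 2 together (0.97, adjusted p = 0.244). In medium the Vegfa difference was 0.62 ± 0.24 (adjusted p = 0.12) with overlapping groups. Every AhR-deficient library lay above every wild-type library for Hif1a in either treatment, with differences of 0.50 ± 0.16 (adjusted p = 0.0691) in medium and 0.51 ± 0.16 (adjusted p = 0.122) with IL-4 that did not pass. In medium it passed without wild-type number 3 (adjusted p = 0.0356) or 7 (adjusted p rounding to 0.05). DESeq2 (adjusted p = 0.0203) and the random block (0.54, adjusted p = 0.0454) called it in medium as well. With IL-4 the Hif1a difference passed with DESeq2 (0.52, adjusted p = 0.0289) and with only the groups compared (0.51, adjusted p = 0.0439). Slc2a1 differed by 0.46 ± 0.14 (adjusted p = 0.0531) in medium, also with no overlap. It passed without wild-type medium number 3 or AhR-deficient medium number 5 (adjusted p = 0.0327 and 0.0491) and with the random block (adjusted p = 0.0359). Other settings in which it passed were upper-quartile scaling, DESeq2, no filter and the filter of 1 CPM (adjusted p = 0.0479, 0.014, 0.0414 and 0.0479). The Egln members had differences that did not pass in medium, Egln1 of -0.30 ± 0.09 (adjusted p = 0.0595) and Egln3 of -0.65 ± 0.23 (adjusted p = 0.0954). Egln1 passed without wild-type medium number 7 (adjusted p = 0.0197), with DESeq2 (adjusted p = 0.0235) and with no filter (adjusted p = 0.0481). Egln3 passed without AhR-deficient medium number 5 (adjusted p = 0.0258) and with DESeq2 (adjusted p = 0.0326). Hk1 differed by -0.22 ± 0.10 (adjusted p = 0.193) in medium and passed without wild-type medium number 3 (adjusted p = 0.0466). With IL-4, Ankrd37 differed by -0.80 ± 0.27 (adjusted p = 0.137) and Slc16a1 by -0.32 ± 0.11 (adjusted p = 0.141), both with no overlap. Slc16a1 passed there with only the groups compared (adjusted p = 0.0442). The X-linked members Pgk1, Pdk3 and Pdha1 were not called in either treatment, with differences of -0.13 for Pdk3 and -0.09 for Pdha1 in medium. The enzymes from Aldoa to Pkm had 0 of 8 called in either treatment, with medians of 0.031 in medium and -0.015 with IL-4.

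**Figure D5:**
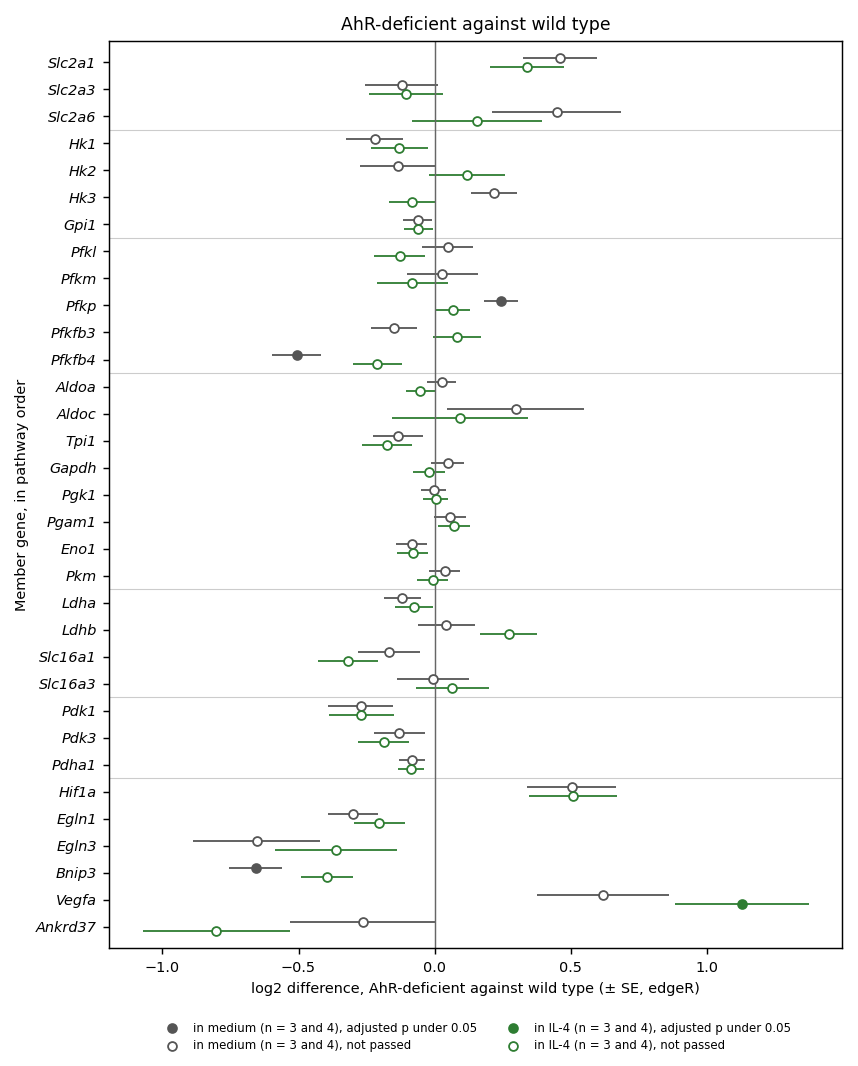
Log2 difference between AhR-deficient and wild-type libraries (x axis, ± SE from edgeR) for the 33 tested members in pathway order (y axis), in medium and with IL-4 (n = 3 and 4 libraries each), with filled points for an adjusted p under 0.05. Filled points are Pfkp (0.24), Pfkfb4 (-0.51) and Bnip3 (-0.66) in medium and Vegfa (1.13) with IL-4.

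Genes of the same pathways outside the 34 were counted from 6 lists, which were also drawn up with earlier results of these data known. With IL-4, the background of calls over all genes was 35.9% in wild type and 29.5% in AhR-deficient cells. The lists were not tested as sets against it. Of 10 tested genes among other glycolytic isoforms and regulators, 3 rose and 1 fell with IL-4 in wild type and the AhR-deficient cells had 3 rises. The uric acid and hexose carrier Slc2a9 rose by 1.60 ± 0.12 (adjusted p = 1.87e-07) in wild type and 1.52 ± 0.14 (adjusted p = 2e-06) in AhR-deficient cells, and Slc2a4, the insulin-responsive carrier, rose by 2.94 ± 0.33 (adjusted p = 9.21e-06) from a mean of 0.134 CPM to 1.06 CPM. Eno3, the muscle enolase, fell in wild type by 0.66 ± 0.21 (adjusted p = 0.0254). Of 13 tested genes for pyruvate entry into mitochondria, 2 rose and 1 fell in wild type and 1 rose and 1 fell in AhR-deficient cells. Mpc1, a subunit of the mitochondrial pyruvate carrier, changed by -0.66 ± 0.07 (adjusted p = 2.97e-06) and -0.61 ± 0.08 (adjusted p = 3.41e-05), and Pdhb, a subunit of pyruvate dehydrogenase, rose by 0.23 ± 0.04 (adjusted p = 0.000186) and 0.19 ± 0.04 (adjusted p = 0.00278).

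Of 7 tested HIF subunits and oxygen-sensing genes, 3 rose and 0 fell with IL-4 in wild type, and AhR-deficient cells had 1 rise. The background over all genes given above holds for this list and for those that follow. Vhl, the ligase subunit that recognises hydroxylated HIF, rose by 0.83 ± 0.07 (adjusted p = 2.53e-07) in wild type, from a mean of 71.0 to 126 CPM, and by 0.87 ± 0.08 (adjusted p = 1.05e-06) in AhR-deficient cells. Cited2, a factor that competes with HIF for its coactivator, rose in wild type by 0.69 ± 0.13 (adjusted p = 0.00069). Of 20 tested genes known to be induced by low oxygen, 3 rose and 4 fell in wild type and 3 rose and 5 fell in AhR-deficient cells, so this list had no common direction either (median log2 change -0.01 and 0.024). P4ha1, a collagen prolyl hydroxylase, changed by -0.83 ± 0.07 (adjusted p = 2.55e-07) and -0.86 ± 0.07 (adjusted p = 1.18e-06), and Mxi1, a repressor of the Myc network, by -1.34 ± 0.13 (adjusted p = 2.04e-06) and -1.20 ± 0.15 (adjusted p = 3.55e-05). Stc2, a secreted glycoprotein, rose by 2.44 ± 0.36 (adjusted p = 0.000106) and 2.42 ± 0.34 (adjusted p = 8.09e-05) from means of 0.126 and 0.538 CPM in medium, and Plin2, a lipid droplet protein, rose by 0.33 ± 0.09 (adjusted p = 0.0107) and 0.62 ± 0.11 (adjusted p = 0.000458). In the pentose phosphate pathway, the branch that makes NADPH, 1 of 7 genes fell in wild type and 2 in AhR-deficient cells, with Pgd changing by -0.43 ± 0.05 (adjusted p = 1.5e-05) and -0.61 ± 0.06 (adjusted p = 3.04e-06) and Taldo1 by -0.24 ± 0.07 (adjusted p = 0.0232) in AhR-deficient cells. Among 7 genes of glycogen metabolism, 1 rose and 2 fell in wild type and 1 rose and 3 fell in AhR-deficient cells. The synthase Gys1 rose by 0.23 ± 0.07 (adjusted p = 0.0216) and 0.23 ± 0.08 (adjusted p = 0.0488), while the phosphorylase Pygl changed by -0.41 ± 0.07 (adjusted p = 0.000303) and -0.28 ± 0.08 (adjusted p = 0.0149) and Ugp2, which makes UDP-glucose, by -0.32 ± 0.04 (adjusted p = 2.69e-05) and -0.24 ± 0.05 (adjusted p = 0.00136).

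Between genotypes, the background of calls over all genes was 8.11% in medium and 1.62% with IL-4, as given above. In medium, 3 of 13 genes of pyruvate entry were lower in AhR-deficient libraries, with Pdpr, a regulator of pyruvate dehydrogenase phosphatase, at -0.42 ± 0.08 (adjusted p = 0.0109) and the phosphatase Pdp1 at -0.36 ± 0.09 (adjusted p = 0.0257), and Pdpr was lower with IL-4 as well, at -0.34 ± 0.08 (adjusted p = 0.0496). Of the 20 hypoxia-induced genes 2 were higher and 2 lower in medium, with Ddit4, an inhibitor of mTOR signalling, at 0.80 ± 0.11 (adjusted p = 0.00268), Stc2 at 2.05 ± 0.39 (adjusted p = 0.0115), Bnip3l, the relative of Bnip3, at -0.36 ± 0.07 (adjusted p = 0.0121) and Kdm3a, a histone demethylase, at -0.33 ± 0.07 (adjusted p = 0.014). With IL-4, Stc2 alone of these 20 was higher, at 2.03 ± 0.30 (adjusted p = 0.0063). None of the 7 HIF subunit and oxygen-sensing genes was called between genotypes with edgeR in either treatment. Eno2 and Pgd were higher and Pygl lower in medium, at 1.21 ± 0.27 (adjusted p = 0.0199), 0.23 ± 0.06 (adjusted p = 0.0271) and -0.36 ± 0.07 (adjusted p = 0.0153).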

How the data were processed

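RNA-seq of 14 libraries was deposited by the authors as raw counts per gene, whole numbers with 1 column per library. Paired 100-nt reads came from a stranded mRNA kit, per the labels' protocols. FastQC, STAR and mm10 are named in the submitters' processing notes; which program counted the reads, on what annotation and strand, and with what filters is not given in the sources used here, so overlapping genes are uncertain. All 14 columns matched a sample by title, and 55394 of 55487 identifiers matched GENCODE M21 (55094 with version). Of the members, 33 of 34 passed the filter on low counts (all but Pdk4).

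The tests used edgeR 4.0.16 (R 4.3.3): filterByExpr retained 14754 genes, which carried 99.947% or more of the counts in every library, with TMM scaling, 1 mean per group over all 14 libraries, quasi-likelihood tests and Benjamini-Hochberg adjustment over all genes tested (10 residual degrees of freedom). An adjusted p under 0.05 is a call. The steps were tested on simulated data. Library totals of 33432502 to 42885079 make counting error small for most members, so errors come from the replicates. Titles carry a number that recurs in both treatments of a genotype. After group means were removed, the pair of each number correlated over 8688 genes at r = 0.118 (number 7) to 0.716. The libraries of every number but 7 correlated best with each other. The numbers were taken to pair the samples and served as a block, although for number 7 the correlation did not show the pairing. No number occurs in both genotypes. Near-identical stretches (95% identity over 300 bases) were found with blastn 2.17.0. Alternatives were other scaling, DESeq2 1.42.0, limma 3.58.1 (voom), other filters, only the groups compared, the block, and libraries left out. Members named in full were those called with a log2 change of 0.5 or more in size, and Hif1a; of the pathway lists, the 2 smallest adjusted p per direction. Members and lists were chosen with earlier results of these data known.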

Additional observations from a re-analysis of the deposited data

Results flagged for a closer look

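Of 66 sets of 4 wild-type libraries, 1 for each tested member and treatment, 2 had 1 library standing far from the other 3 by Dixon's criterion at the 95% level (gap over range of 0.965 and 0.901). Chance gives about 1 in 20. Eno1, enolase 1, read 509.6 CPM in wild-type medium number 1, while the other 3 libraries read 470.9 to 472.2 CPM. Bnip3 read 15.6 CPM in wild type with IL-4 number 3, while the other 3 read 17.62 to 17.84 CPM. No explanation was tested for either.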

How the results depend on the processing

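The counts of members that rose with IL-4 stayed within 1.5 times of 5 in wild type and 7 in AhR-deficient cells under every alternative run. Falls with IL-4 in wild type, 10 in the model reported, ranged from 6 to 12 with 1 library left out, the lowest being without IL-4 number 2. They came to 12 with DESeq2 size factors, with the DESeq2 Wald test and with the filter of 1 CPM, where Gapdh and Pgk1 were added. They came to 5 without numbers 1 and 2, where Hk2, Gpi1, Aldoa, Pgam1 and Ldhb were lost (Aldoa at adjusted p = 0.0569). Over all genes, falls in wild type numbered 2431 in the model reported, 2277 without IL-4 number 2 and 1813 without numbers 1 and 2. They numbered 2566 with DESeq2 size factors, 2643 with the DESeq2 Wald test and 2430 with the filter of 1 CPM. The replicate block gave 6 rises and 13 falls in wild type and 7 and 11 in AhR-deficient cells, and beyond the members named in the report it changed no other call in edgeR. Over all genes it gave 3364 rises and 2933 falls in wild type and 2717 and 2627 in AhR-deficient cells. As a random block in limma-voom it also gave calls for Pgk1 and Bnip3 in wild type and Pgam1 in AhR-deficient cells, and none for Slc2a1 there (adjusted p = 0.131). Genotype counts were the least stable. Members higher in AhR-deficient medium numbered 1 in the model reported, 2 with upper-quartile scaling, 3 with the DESeq2 Wald test, 2 with the filter of 1 CPM, 0 with only the groups compared, 3 with the random block, 0 to 3 without 1 library and 0 without numbers 1 and 2. Members lower in medium numbered 2, against 4 with DESeq2, 0 with only the groups compared, 1 to 3 without 1 library and 0 without numbers 1 and 2. Over all genes tested in medium, 614 were higher and 583 lower in the model reported, and 1046 and 944 with DESeq2. They were 33 and 26 with only the groups compared, and 21 and 9 without numbers 1 and 2. With IL-4, 1 was higher, against 2 with DESeq2, 2 with only the groups compared, 0 to 1 without 1 library and 0 without numbers 1 and 2; 0 were lower, against 1 with DESeq2, 3 with only the groups compared, 1 with the random block and 0 to 1 without 1 library. Over all genes tested with IL-4, 141 were higher and 98 lower in the model reported, and 505 and 297 with DESeq2. They were 350 and 173 with only the groups compared, and 16 and 9 without numbers 1 and 2. Calls over all genes thus moved with the setting as well. The cause of these moves was not tested, beyond the fewer libraries in some fits. No called change reversed its sign. Other scaling shifted the median of all genes by at most 0.016 in size.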
